A study of Mus musculus with 86 samples.

Results

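The genes described here encode the collagens of the heart's interstitial matrix: the fibrillar chains Col1a1, Col1a2, Col3a1, Col5a1 and Col5a2, the microfibril chains Col6a1, Col6a2 and Col6a3, the short-chain collagen Col8a1 and the fibril-associated collagen Col14a1. Every probe set whose annotated symbol was one of these 10 genes was taken, which gave 22 of the 45101 probe sets of the array. Of these, 21 passed the filter on dim probe sets, under which the mean of at least 1 group had to exceed log2 0, the median of an array. The probe set left out, 1453931_at of Col14a1, reached at most −0.78 as a group mean. One probe set stood for each gene where genes are described singly, namely the brightest by its mean over all arrays.

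Collagens are triple helices of chains that are hydroxylated and folded in the endoplasmic reticulum, secreted as procollagen, trimmed at their ends and joined into fibrils by lysyl oxidases. In the heart they are made mainly by fibroblasts. Type I fibrils give the tissue tensile strength, type III fibrils form a finer and more compliant mesh, and type V collagen lies inside fibrils and limits their diameter. Collagen accumulates between the muscle cells in fibrosis, a common outcome of long adrenergic stimulation.

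Hearts came from 4 mouse lines, of which FVB and C57BL/6 are wild-type strains, B2KO is a line whose genotype the labels do not explain further, and B6129SF2/J is a wild-type hybrid stock. Treated mice were infused for 14 days with isoproterenol (120 µg/g/day), which activates the beta-adrenergic receptors of the heart, and the others had no treatment, with no vehicle infusion named in the labels. For FVB there were 12 treated and 10 untreated arrays, for C57BL/6 10 treated and 11 untreated, for B2KO 11 treated and 10 untreated, and for B6129SF2/J 12 treated and 10 untreated. Treated B2KO replicates 4 and 9 held the same values within rounding (r = 0.99999976, against at most 0.982 for any other pair), and their mean was used as 1 array, which left 10 treated B2KO arrays and 85 of 86 in all. The labels number the mice within each group but do not say how hearts were batched. The study set these lines against each other because FVB and B2KO developed systolic dysfunction under the infusion and C57BL/6 diastolic dysfunction, with B6129SF2/J as a separate group for prediction.

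The tissue label was checked against 8 cardiomyocyte markers, all above the array median in every group, while all 5 skeletal muscle markers lay below it in every group. The summed level of 4 lung epithelium markers reached 8.90 in untreated B6129SF2/J (group median 1.19), 7.48 in untreated B2KO (1.14) and 5.59 in treated FVB (1.21). No array was left out on this measure, and its part in the collagen values was not tested. Treated B2KO replicate 10 failed: its median correlation with the other arrays was 0.573, against at least 0.831 for the rest. At probe sets that mark the strains, FVB and B2KO were treated as a single shared background, so a swap between these lines could not be seen. Treated FVB replicate 2 lay nearer to C57BL/6 (distance 1.01) than to the background shared by FVB and B2KO (2.87). Treated B2KO replicate 7 lay about as near to B6129SF2/J (1.81) as to that shared background (1.63). In addition, 5 arrays had a Gapdh signal more than 2 log2 units higher at the 3′ end than at the 5′ end (untreated FVB 10, untreated C57BL/6 11, untreated B6129SF2/J 8, treated B6129SF2/J 7 and untreated B2KO 8). The failed array, both arrays in doubt as to strain and these 5 were kept in the values below unless stated. Collagen counts by line are also given without them, as are some changes of single genes. The lists of related genes and the cell type markers are given with all arrays only. Their B2KO values include the failed array, which also enters the spread shared by all lines. In whole hearts, more collagen RNA per fibroblast and more fibroblasts cannot be told apart. All levels are log2 intensity relative to the array median, and all changes are log2 differences, isoproterenol minus untreated, ± SE.

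Promoter windows of 250 bases before an annotated start were available from RefSeq (GRCm38.p6) for 7 of the 10 genes, in 8 windows. Of these, 3 (of Col5a1, Col6a2 and Col6a3) overlapped the annotated gene by 30 to 226 bases and were left out of the counts below, which left 5 windows of 5 genes. The windows of Col3a1, Col8a1, Col1a2 and Col6a1 are shown because these genes differed in their calls: Col3a1 and Col8a1 rose in 3 lines, Col1a2 in 1 at its brightest probe set and Col6a1 in none. The windows are chr1:45311288-45311537 on the plus strand for Col3a1, chr16:57754738-57754987 on the minus strand for Col8a1, chr6:4505368-4505617 on the plus strand for Col1a2 and chr10:76726045-76726294 on the minus strand for Col6a1. They are written 5′ to 3′ in the direction of transcription, and capitals mark matches on either strand to CCAAT, the GC box GGGCGG, the SMAD-type sequence CAGAC, the AP-1 site TGAGTCA and TATAAA.
Col3a1: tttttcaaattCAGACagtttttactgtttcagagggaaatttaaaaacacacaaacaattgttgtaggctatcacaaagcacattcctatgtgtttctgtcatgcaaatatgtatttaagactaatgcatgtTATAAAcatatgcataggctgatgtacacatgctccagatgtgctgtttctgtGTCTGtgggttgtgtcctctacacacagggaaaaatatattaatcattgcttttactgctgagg
Col8a1: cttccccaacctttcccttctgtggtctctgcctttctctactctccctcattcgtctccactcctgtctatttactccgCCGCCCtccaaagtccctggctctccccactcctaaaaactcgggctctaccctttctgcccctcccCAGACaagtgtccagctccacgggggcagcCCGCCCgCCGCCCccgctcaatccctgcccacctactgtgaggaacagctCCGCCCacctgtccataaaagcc
Col1a2: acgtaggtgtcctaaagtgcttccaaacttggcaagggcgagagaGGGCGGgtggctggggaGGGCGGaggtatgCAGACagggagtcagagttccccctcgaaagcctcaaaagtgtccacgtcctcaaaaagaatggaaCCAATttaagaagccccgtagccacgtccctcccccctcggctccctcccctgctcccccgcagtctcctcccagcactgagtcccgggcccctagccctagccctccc
Col6a1: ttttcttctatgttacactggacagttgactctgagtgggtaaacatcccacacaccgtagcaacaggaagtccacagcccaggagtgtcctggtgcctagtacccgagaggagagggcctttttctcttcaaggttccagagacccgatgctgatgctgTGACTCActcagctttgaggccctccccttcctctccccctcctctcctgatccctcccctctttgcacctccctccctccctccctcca
The Col3a1 window was AT-rich, with 35.2% GC, and held TATAAA at 117 to 112 bases before the start and CAGAC in either orientation at 239 to 235 and 64 to 60. The Col8a1 window held 4 GC boxes, of which the nearest ended 18 bases before the start, and 1 match to CAGAC. The CCAAT letters were found in 1 of the 5 collagen windows, that of Col1a2, at 109 to 105. The AP-1 letters were found in 1 of 5 as well, that of Col6a1, at 90 to 84. Over 32851 mouse windows of the same length, CCAAT was present in 33.8%, the GC box in 32.7%, CAGAC in 42.2%, the AP-1 site in 4.46% and TATAAA in 12.4%. Those windows were not sorted by overlap with a gene. Of the 5 collagen windows, 3 held a GC box and 4 held CAGAC. A match is a run of letters and does not show that a factor binds there.

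Isoproterenol was followed by higher collagen RNA in FVB, C57BL/6 and B6129SF2/J hearts. In each of these lines the change of all 10 genes was above 0, and the median over the genes was 1.08 in FVB, 0.91 in C57BL/6 and 1.01 in B6129SF2/J, against −0.01, 0.08 and −0.01 over all probe sets tested. In B2KO hearts no collagen probe set passed, and the median over the genes was 0.20, with 7 of 10 above 0, against −0.23 over all probe sets. Without the failed array the B2KO median was 0.51, with 10 of 10 genes above 0, against −0.06 over all probe sets, and again no collagen probe set passed. The probe sets that passed, by limma with adjusted p under 0.05, were all higher with treatment: 12 of 21 in FVB, where 0.627% of all tested probe sets rose, 14 in C57BL/6, where 13.3% rose, 13 in B6129SF2/J, where 2.35% rose, and 0 in B2KO, where 0.0522% rose. At unadjusted p under 0.05, 5 of 21 collagen probe sets passed in B2KO, and 4665 of all 24885 did. The C57BL/6 count stands on a broad background, since 23.2% of all probe sets changed there in either direction.

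Of the 21 probe sets, 8 passed in 3 lines, 6 in 2, 3 in 1 and 4 in none. The same count was not made over all tested probe sets, whose shares by line are given above. The 21 include 1418441_at of Col8a1, which passed the filter through its treated groups alone. Both probe sets of Col3a1 passed in FVB, C57BL/6 and B6129SF2/J. The 4 that passed nowhere were 1455494_at of Col1a1, 1446326_at of Col1a2, and the single probe sets of Col6a1 and Col6a3.

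**Figure D1:**
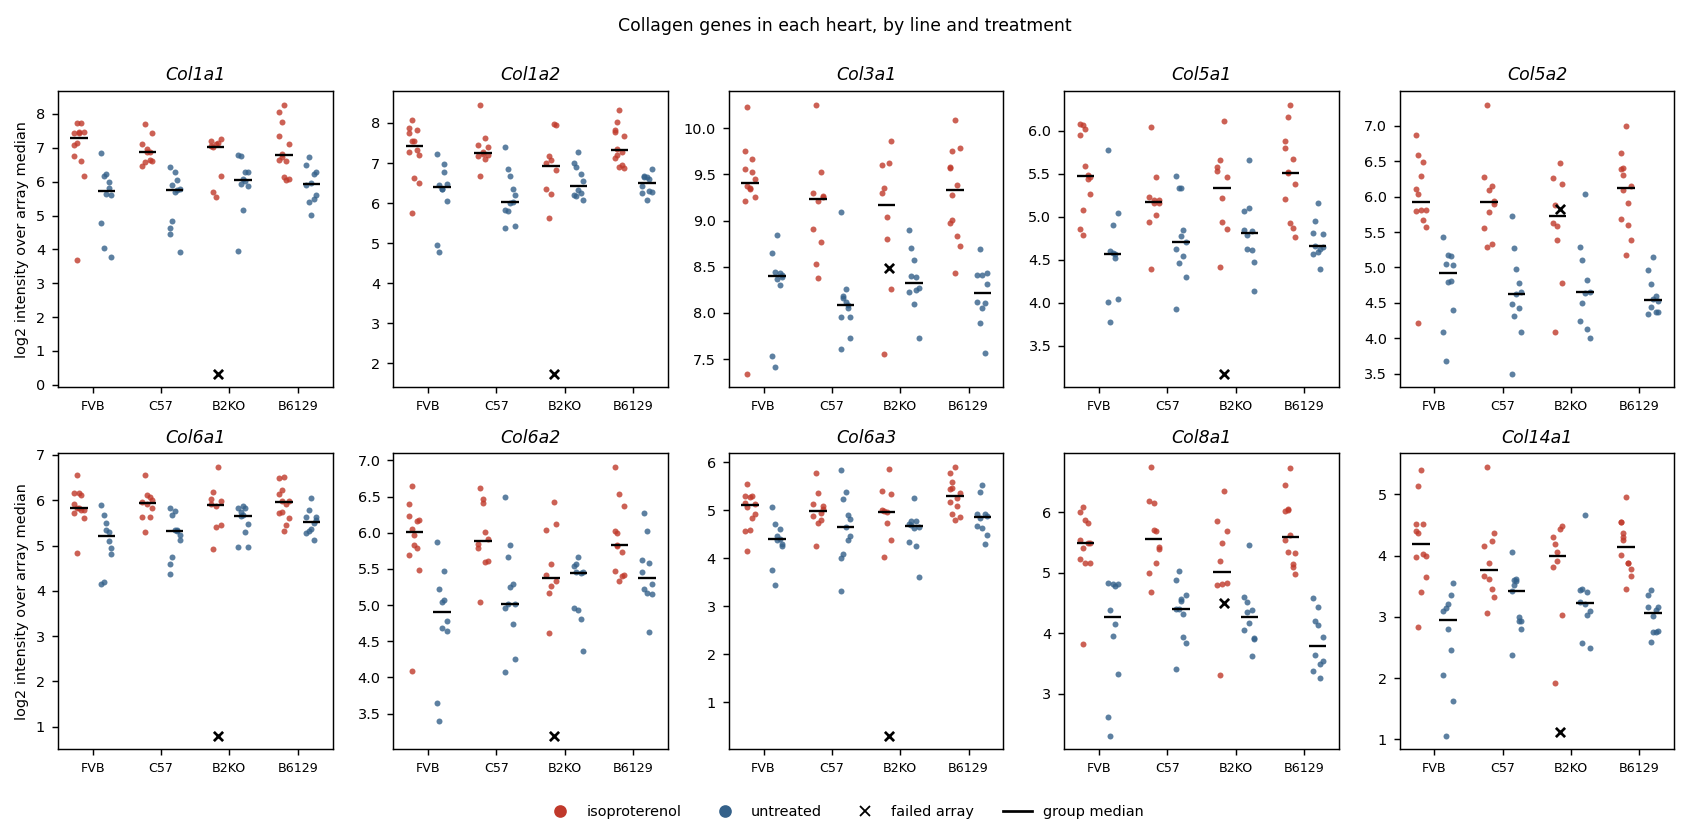
Log2 intensity over the array median (vertical axis) of the brightest probe set of each collagen gene in each heart, with isoproterenol (red) left of untreated (blue) in each line; bars are group medians and the cross is the failed array, treated B2KO replicate 10. The treated group lies higher in FVB, C57BL/6 and B6129SF2/J, with 1 treated FVB array far below the others, and the failed array reads 0.33 at Col1a1.

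Type I collagen, the most abundant collagen of scar, is built from the chains of Col1a1 and Col1a2. In C57BL/6 hearts Col1a1 read 6.47, 6.86 and 7.72 (lowest, median and highest of 10 treated arrays), against 3.94, 5.77 and 6.42 in the 11 untreated arrays. The 2 groups did not overlap, and Col1a1 rose by 1.50 ± 0.44 (2.82-fold, limma adjusted p = 0.00911). In FVB hearts Col1a1 read 3.68, 7.29 and 7.74 in 12 treated arrays, against 3.77, 5.72 and 6.84 in 10 untreated arrays. There the lowest of all was a treated array, replicate 2, while 8 of the 12 treated arrays lay above every untreated one. The change of 1.40 ± 0.43 had an adjusted p of 0.0968, and without treated replicate 2 it was 1.69 with an adjusted p of 0.0114. The fit shares 1 estimate of spread over all lines, and without the failed B2KO array the same FVB change had an SE of 0.34 and passed (adjusted p = 0.00909). In B6129SF2/J hearts Col1a1 read 6.04, 6.78 and 8.28 in treated arrays, against 5.01, 5.93 and 6.73 in untreated arrays. All 12 treated arrays lay above the untreated mean, and the change of 1.06 ± 0.43 passed only without the failed B2KO array (adjusted p of 0.154 with it and 0.0351 without it).

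In B2KO hearts Col1a1 read 0.33, 7.03 and 7.26 in treated arrays, against 3.96, 6.04 and 6.79 in untreated arrays. The lowest value is the failed array, and 6 of the 10 treated arrays lay above every untreated one. With it the change was 0.14 ± 0.45 (adjusted p = 0.907), and without it 0.77 ± 0.36 (adjusted p = 0.471). The second probe set of Col1a1, 1455494_at, had values of 0.51 in FVB, 0.24 in C57BL/6, 0.10 in B2KO and 0.28 in B6129SF2/J, and passed in none of the 4 lines. The rise of Col1a1 in C57BL/6 therefore rests on 1 of its 2 probe sets.

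Col1a2, the partner chain, rose in C57BL/6 hearts by 1.18 ± 0.34 (adjusted p = 0.00771), with 6.67, 7.25 and 8.46 in treated and 5.39, 6.03 and 7.40 in untreated arrays. Its range overlapped that of the untreated arrays, and 4 of 10 treated arrays lay above all of them. In B6129SF2/J hearts the groups did not overlap, at 6.88, 7.32 and 8.33 in treated and 6.09, 6.52 and 6.84 in untreated arrays, yet the change of 0.97 ± 0.33 had an adjusted p of 0.074. The SD of Col1a2 was 1.79 in treated B2KO arrays, against 0.47 in treated and 0.24 in untreated B6129SF2/J arrays. Without the failed array the change of 0.97 passed (adjusted p = 0.00628). FVB hearts gave 1.04 ± 0.33 (adjusted p = 0.12), which passed without treated replicate 2 (1.18, adjusted p = 0.0437) and without the failed array (adjusted p = 0.00817). In B2KO hearts the change was −0.15 ± 0.35 with the failed array and 0.36 ± 0.26 without it. The second probe set, 1423110_at, rose in FVB (1.31 ± 0.30), C57BL/6 (0.91 ± 0.31) and B6129SF2/J (1.24 ± 0.30). The third, 1446326_at, lay near the array median in every group, with group means of −0.12 to 0.73.

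Type III collagen, a homotrimer of the Col3a1 chain, passed in 3 of the 4 lines. Treated FVB hearts had 7.34, 9.41 and 10.2, against 8.40 as the median and 7.42 to 8.84 as the range in untreated hearts. For C57BL/6 the values were 8.38, 9.23 and 10.3 in treated and 7.61, 8.08 and 9.09 in untreated arrays. In 11 of 12 FVB and 6 of 10 C57BL/6 treated arrays Col3a1 exceeded every untreated array. B6129SF2/J hearts read 8.43, 9.33 and 10.1 with treatment and 7.57, 8.22 and 8.69 without. Again 11 of 12 treated arrays lay above all untreated ones. Col3a1 thus rose by 1.06 ± 0.23 in FVB (adjusted p = 0.00359), by 1.03 ± 0.23 in C57BL/6 (adjusted p = 0.000539) and by 1.08 ± 0.23 in B6129SF2/J (adjusted p = 0.000937). In B2KO it read 7.56, 9.17 and 9.86 in treated and 7.73, 8.33 and 8.90 in untreated arrays, a change of 0.63 ± 0.24 (adjusted p = 0.14). The failed array did not stand apart at Col3a1, where it read 8.49. The dimmer probe set 1427884_at rose by 1.65, 1.08 and 1.62 in FVB, C57BL/6 and B6129SF2/J.

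Type V collagen nucleates fibrils and is built from Col5a1 and Col5a2. Col5a2 rose in 3 lines, by 1.17 ± 0.25 in FVB, 1.34 ± 0.26 in C57BL/6 and 1.45 ± 0.25 in B6129SF2/J, with adjusted p of 0.00364, 6.44e-05 and 4.69e-05. In B6129SF2/J hearts its treated arrays read 5.17, 6.13 and 7.00 and its untreated arrays 4.35, 4.54 and 5.15, with no overlap. The narrow range of the untreated group, 0.81 log2 units, compares with 2.23 in untreated C57BL/6 hearts. Of all 10 genes Col5a2 also had the largest change in B2KO with all arrays kept, but not without the failed array (0.84, against 0.85 for Col8a1). Its treated B2KO arrays read 4.09, 5.73 and 6.48 and its untreated arrays 4.01, 4.65 and 6.03. The B2KO change with all arrays was 0.87 ± 0.26 (adjusted p = 0.077), and 9 of the 10 treated arrays exceeded the mean of the untreated ones. The call turned on single arrays, as Col5a2 passed without treated replicate 7 (adjusted p = 0.0248), treated replicate 5 (0.032) or untreated replicate 8 (0.0441), while the adjusted p was 0.204 without the failed array. Its second probe set, 1450625_at, rose by 1.24 in FVB and 1.74 in B6129SF2/J and did not pass in C57BL/6 (0.76, adjusted p = 0.0523).

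Col5a1 has 3 probe sets. At the brightest, it rose by 0.92 ± 0.22 in FVB (adjusted p = 0.0146) and by 0.78 ± 0.22 in B6129SF2/J (adjusted p = 0.0225), and in each line all 12 treated arrays exceeded the mean of the untreated ones. The C57BL/6 change there was 0.42 ± 0.23 (adjusted p = 0.177), while 1434479_at and 1416741_at of the same gene rose in that line by 0.78 and 1.53. Col5a1 thus passed in C57BL/6 at 2 of its 3 probe sets. In B2KO hearts the 3 gave 0.28, −0.02 and 0.37 with all arrays and 0.49, 0.28 and 0.63 without the failed array, none of which passed. Without treated B6129SF2/J replicate 8 the call in B6129SF2/J ended (adjusted p = 0.0552).

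**Figure D2:**
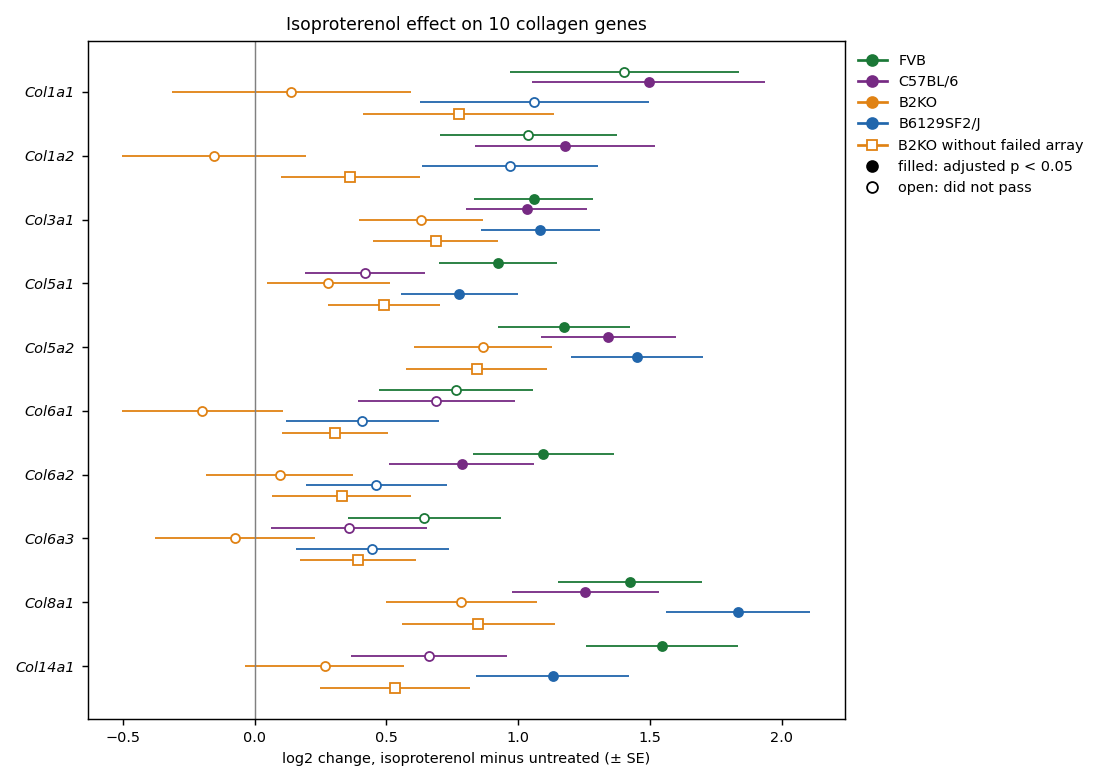
Log2 change with isoproterenol (horizontal axis, ± SE) of the brightest probe set of each collagen gene in the 4 lines, filled where the limma adjusted p was under 0.05; squares give B2KO without its failed array. All 10 genes lie above 0 in FVB, C57BL/6 and B6129SF2/J, and the B2KO values for Col1a2, Col6a1 and Col6a3 cross from below 0 to above it when the failed array is left out.

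Type VI collagen forms beaded microfibrils next to the basement membranes of muscle cells, and 1 of its 3 genes, Col6a2, passed with all arrays kept. Col6a2 rose by 1.10 ± 0.27 in FVB (adjusted p = 0.0165) and by 0.79 ± 0.27 in C57BL/6 (adjusted p = 0.0278). FVB treated arrays read 4.09, 6.01 and 6.65, against 3.39, 4.91 and 5.87 in untreated arrays, and in C57BL/6 the values were 5.04, 5.88 and 6.62 in treated and 4.08, 5.01 and 6.50 in untreated hearts. The groups overlapped in both lines, and leaving out single arrays could end either call, at an adjusted p of up to 0.0655 in FVB (without untreated replicate 1 or 2) and 0.0677 in C57BL/6 (without untreated replicate 5 or 6, or treated replicate 2, 3 or 8). In B6129SF2/J the value of Col6a2 was 0.46 ± 0.27 (adjusted p = 0.377). Col6a1 did not pass in any line with all arrays kept, at 0.77 ± 0.29 in FVB, 0.69 ± 0.30 in C57BL/6, −0.20 ± 0.30 in B2KO and 0.41 ± 0.29 in B6129SF2/J. Without the failed array it passed in FVB (adjusted p = 0.0109) and in C57BL/6 (adjusted p = 0.00424). Its treated C57BL/6 arrays all lay above the untreated mean, and 7 of 10 above every untreated array. Col6a3 had the smallest change of the 10 genes in FVB (0.64) and C57BL/6 (0.36), and did not pass in any line with all arrays kept. Without the failed array and both arrays in doubt as to strain it passed in FVB (0.72, adjusted p = 0.0253), and without 8 arrays in FVB (0.71, adjusted p = 0.0159) and C57BL/6 (0.48, adjusted p = 0.0467).

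In B2KO the failed array stood far below the others at type VI genes. It read 0.80 at Col6a1 and 0.30 at Col6a3, where the other 9 treated arrays ran from 4.93 to 6.74 and from 4.03 to 5.87. Without it the changes were 0.31 ± 0.20 for Col6a1, 0.33 ± 0.26 for Col6a2 and 0.39 ± 0.22 for Col6a3, none of which passed.

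Col8a1, a short-chain collagen that forms networks rather than fibrils and is made by vascular and injured tissue, had the largest rise of the 10 genes in B6129SF2/J. There its treated arrays read 4.98, 5.59 and 6.73, against 3.26, 3.79 and 4.59 in untreated arrays. The groups did not overlap, and the rise was 1.84 ± 0.27 (3.57-fold, limma adjusted p = 2.16e-06). In FVB treated hearts had 3.82, 5.50 and 6.09, against 2.31, 4.27 and 4.84 in untreated hearts. All treated FVB arrays but replicate 2 exceeded every untreated one, and Col8a1 rose by 1.43 ± 0.27 (adjusted p = 0.000914). C57BL/6 hearts gave 4.68, 5.56 and 6.76 with isoproterenol and 3.42, 4.40 and 5.04 without, a rise of 1.25 ± 0.28 (adjusted p = 0.00053).

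Of the other Col8a1 probe sets, 1418440_at gave a larger change than the brightest in C57BL/6 only, and 1418441_at in every line but B2KO. In C57BL/6, 1418440_at read 3.14, 4.27 and 5.11 in treated and 0.69, 2.06 and 2.95 in untreated arrays, a rise of 2.26 ± 0.33 without overlap. At 1418441_at the rise was 2.75 ± 0.44 in B6129SF2/J, but 9 of its 10 untreated arrays were below the array median, so this size rests on a dim baseline. Its untreated mean was below 0 in every line, and this probe set passed the filter through its treated groups alone. In B2KO the 3 probe sets of Col8a1 had values of 0.78, 0.52 and 0.77 with all arrays and 0.85, 0.93 and 0.86 without the failed array, and none passed. The brightest read 3.32, 5.02 and 6.35 in treated and 3.63, 4.26 and 5.47 in untreated B2KO hearts, and 4 of 10 treated arrays exceeded all untreated ones.

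Col14a1 encodes a collagen that sits on the surface of fibrils. It had the largest rise of the 10 genes in FVB, 1.55 ± 0.29 (2.92-fold, adjusted p = 0.000649), with 2.83, 4.19 and 5.40 in treated and 1.06, 2.95 and 3.56 in untreated arrays. Even treated replicate 2 lay above the untreated mean here. In B6129SF2/J the groups did not overlap, at 3.45, 4.14 and 4.96 in treated and 2.59, 3.06 and 3.45 in untreated hearts (rise of 1.13 ± 0.29, adjusted p = 0.00898). The C57BL/6 change was 0.66 ± 0.30 (adjusted p = 0.0925) at the brightest probe set, with 3.06, 3.77 and 5.45 in treated and 2.38, 3.42 and 4.05 in untreated arrays. At 1428455_at Col14a1 rose in C57BL/6 by 1.22 ± 0.30 (adjusted p = 0.00202), so the call in this line depends on the probe set. B2KO hearts read 1.12, 3.99 and 4.48 with treatment and 2.48, 3.22 and 4.66 without, and the highest value of both groups was an untreated array, replicate 8, one of those with a high Gapdh difference.

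**Figure D3:**
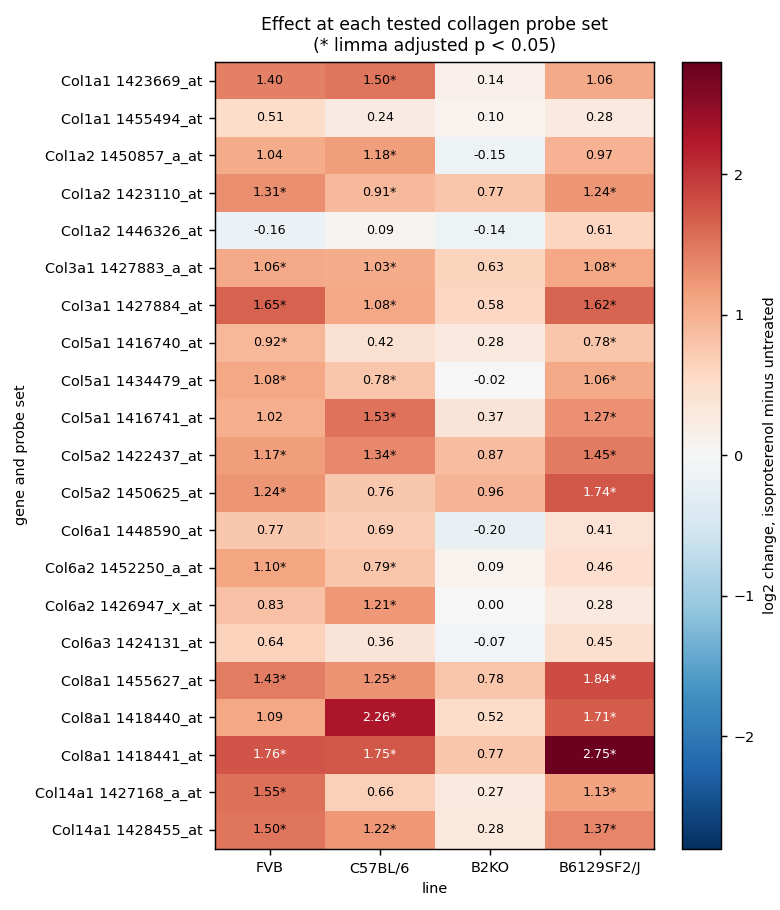
Log2 change with isoproterenol at each of the 21 tested collagen probe sets (rows) in the 4 lines (columns), with an asterisk where the limma adjusted p was under 0.05. Probe sets of 1 gene differ in size, as for Col1a1 (1.50 and 0.24 in C57BL/6) and Col8a1 (1.25, 2.26 and 1.75), and the B2KO column holds no asterisk.

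The counts were taken again without the arrays in doubt, beside the share of all probe sets that rose. Without the failed array alone, 0 collagen probe sets passed in B2KO (0.0563%), 17 in FVB (1.15%), 16 in C57BL/6 (17.4%) and 15 in B6129SF2/J (3.57%), while the changes in the last 3 lines stayed as they were and their SE fell. Without that array and both arrays in doubt as to strain, 5 passed in B2KO (0.193%), 19 in FVB (2.11%), 17 in C57BL/6 (17.8%) and 15 in B6129SF2/J (3.87%). With all 8 arrays left out, 6 passed in B2KO (0.241%), 20 in FVB (3.11%), 19 in C57BL/6 (21.6%) and 15 in B6129SF2/J (4.32%). The 6 in B2KO were both probe sets of Col5a2 (1.17 and 1.38), 1423110_at of Col1a2 (1.34), the brightest of Col3a1 (0.84) and the 2 brighter ones of Col8a1 (1.21 and 1.05). All were higher with isoproterenol. The median over the 10 genes in B2KO was then 0.76, against 1.25 in FVB, 1.03 in C57BL/6 and 1.04 in B6129SF2/J. These 3 sets of arrays were chosen from quality measures, not from collagen values.

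Single hearts stood out across most of the genes at the same time. Treated FVB replicate 2 was the lowest of its group at 10 of 10 genes and below the untreated FVB mean at 8. Treated C57BL/6 replicate 2 was the highest of its group at 10 of 10, and treated B6129SF2/J replicate 8 at 9. In B2KO, treated replicate 7 was below the untreated mean at 10 of 10 genes, and neither it nor treated replicate 5 exceeded all untreated arrays at any gene. Treated B2KO replicates 4 and 11 exceeded all untreated B2KO arrays at 9 and 8 genes. Among untreated hearts, C57BL/6 replicate 11, which had the largest Gapdh difference (7.43), was the highest of its group at 9 genes. The part of RNA quality in these values was not tested beyond leaving such arrays out and using the Gapdh difference as a covariate.

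The genes varied together within groups. Over 85 arrays, Pearson's r between the deviations of 2 collagens from their group means ran from 0.427 to 0.949 over 45 pairs, with a median of 0.738. Without the 8 arrays it ran from 0.501 (Col1a1 and Col14a1) to 0.897 (Col6a1 and Col6a3), with a median of 0.736 over 77 arrays. The chains of type VI collagen were among the most alike, with 0.810 for Col6a1 and Col6a2 and 0.819 for Col6a2 and Col6a3, while the lowest r in both sets was one of Col1a1. These values share arrays, scaling and RNA quality and are descriptions only. Of 11952 other genes, the 6 whose deviations were most like the mean of the 10 collagens were Fn1 (fibronectin, r = 0.935), Postn (periostin, 0.907), Frzb (a secreted Wnt antagonist, 0.901), Mfap5 (a microfibril protein, 0.882), Ccdc80 (a secreted matrix protein, 0.875) and Dap (0.872). Without the 8 arrays 5 of these 6 stayed among the first 6, led by Fn1 at 0.888, and Dpysl3 (0.851) took the place of Dap.

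Whether the response differed between lines was tested as a difference of the 2 effects. Between B2KO and C57BL/6, 2 of 21 probe sets passed, both lower in B2KO, where 10.9% of all probe sets passed in either direction and 8.54% were lower, so the collagens' count is near that background. These were 1418440_at of Col8a1, by −1.74 (95% interval −2.67 to −0.81, adjusted p = 0.0119), and 1426947_x_at of Col6a2, by −1.21 (−1.94 to −0.48, adjusted p = 0.0242). Without the failed array the Col8a1 difference was −1.34 (adjusted p = 0.0282) and the Col6a2 difference −0.97 (adjusted p = 0.0604), which no longer passed. At the brightest probe sets none of the 10 genes passed, with differences from −1.36 for Col1a1 to −0.14 for Col5a1. Their median was −0.47, against −0.35 over all probe sets. Without the failed array the differences were −0.72 for Col1a1 and 0.07 for Col5a1. The 10 genes then ran from −0.81 to 0.07, and 2 of them were above 0. Their median was then −0.39, against −0.15 over all probe sets. The interval for Col3a1, −1.05 to 0.25, holds both no difference and the loss of the whole C57BL/6 rise.

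In the mean of FVB and B2KO, the lines with systolic dysfunction, minus C57BL/6, 1 of 21 collagen probe sets passed, lower in FVB and B2KO, where 10.9% of all probe sets passed in either direction and 7.63% were lower. It was again 1418440_at of Col8a1, by −1.46 (−2.26 to −0.66, adjusted p = 0.0118), and by −1.25 without the failed array. The median difference over the 10 genes was −0.19, against −0.21 over all probe sets. It was −0.14 without the failed array, 0.05 without 3 arrays, with 6 of 10 genes above 0, and −0.07 without 8, so its sign depended on which arrays were kept. Between FVB and C57BL/6 no collagen probe set passed (2.48% of all did), and for Col3a1 the difference was 0.03 (−0.61 to 0.67). At unadjusted p under 0.05, 2 of 21 passed, and 4239 of all 24885 did. At the brightest probe sets the largest difference there was 0.89 (0.06 to 1.71) for Col14a1, higher in FVB, with an adjusted p of 0.25.

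The B2KO effect lay below the FVB effect at all 10 genes, with a median difference of −0.84. Over all probe sets the median difference was −0.25, with 24.7% above 0. Of 21 collagen probe sets 0 passed, and 0% of all probe sets did. With unadjusted p under 0.05 there were 10 of 21, and 1798 of all 24885. Leaving out the failed array brought the median difference over the 10 genes to −0.52, against −0.06 over all probe sets. For B6129SF2/J minus FVB no collagen probe set passed (0.0281% of all did). None had an unadjusted p under 0.05, against 1515 of all 24885. The difference was 0.02 (−0.61 to 0.66) for Col3a1 and 0.41 (−0.36 to 1.18) for Col8a1. For B6129SF2/J minus C57BL/6 0 passed, where 10.2% of all probe sets did. With unadjusted p under 0.05 there were 2 of 21, and 5999 of all 24885. Since lines share their untreated hearts across these comparisons, the comparisons are not independent of each other.

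Untreated hearts were compared between lines at the same probe sets. Of the 21 probe sets, 1 passed in untreated B6129SF2/J minus untreated C57BL/6 (11.2% of all did), 1426947_x_at of Col6a2, higher by 0.83 ± 0.26 (adjusted p = 0.0226). Its untreated C57BL/6 arrays ranged from 3.32 to 5.27, and its untreated B6129SF2/J arrays from 4.64 to 5.69. This is the probe set that also passed in the difference of effects between B2KO and C57BL/6, both of which use the untreated C57BL/6 arrays. In untreated FVB minus C57BL/6 (14.5% of all), B2KO minus FVB (0.0402%) and B6129SF2/J minus FVB (7.26%) 0 collagen probe sets passed. With unadjusted p under 0.05 there were 3, 1 and 3 of 21 in this order, and 6805, 928 and 4907 of all 24885. At the brightest probe sets the untreated lines lay within 0.66 log2 units of each other in these comparisons. Untreated means of Col3a1 were 8.28 in FVB, 8.11 in C57BL/6, 8.35 in B2KO and 8.20 in B6129SF2/J.

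The balance of type I to type III collagen was followed as log2 Col1a1 minus log2 Col3a1 in each heart, a quantity whose level has no meaning across probe sets but whose change does. The difference, treated minus untreated, was 0.34 ± 0.32 in FVB (permutation p = 0.301), 0.46 ± 0.24 in C57BL/6 (permutation p = 0.0719), −0.49 ± 0.64 in B2KO (permutation p = 0.603) and −0.02 ± 0.17 in B6129SF2/J (permutation p = 0.89), and after adjustment over the 4 lines none passed (two-sided, lowest adjusted p of 0.288). In C57BL/6 the values were −2.87, −2.10 and −1.52 in treated and −3.79, −2.43 and −1.96 in untreated hearts, which overlap. The B2KO value turns to 0.09 without the failed array. With the mean of each gene's probe sets in place of the brightest, the change was −0.40 in FVB, −0.19 in C57BL/6, −0.49 in B2KO and −0.68 in B6129SF2/J, and the last passed (adjusted permutation p = 0.00088, with each of the 12 treated arrays below the mean of the untreated ones). The sign in FVB and C57BL/6 thus depends on how the Col1a1 probe sets are used.

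The enzymes that make, cut and bind collagen were read from 5 lists of genes, with all arrays kept. Of all tested probe sets, 0.627% rose in FVB, 13.3% in C57BL/6, 0.0522% in B2KO and 2.35% in B6129SF2/J. Among genes that hydroxylate, glycosylate and fold procollagen, 0 of 16 passed in FVB, B2KO and B6129SF2/J, and 4 rose in C57BL/6: P3h2 (1.37 ± 0.32) and P3h3 (0.80 ± 0.28), prolyl 3-hydroxylases, P4ha1 (0.85 ± 0.31), a prolyl 4-hydroxylase subunit, and Plod1 (0.97 ± 0.37), a lysyl hydroxylase. The medians were 0.22 in FVB, 0.54 in C57BL/6, −0.15 in B2KO and 0.24 in B6129SF2/J. Over all probe sets tested the medians were −0.01, 0.08, −0.23 and −0.01 in the same order. Serpinh1, the collagen chaperone Hsp47, had values of 0.53 ± 0.51 in FVB, 0.63 ± 0.52 in C57BL/6, −0.10 ± 0.54 in B2KO and 0.43 ± 0.51 in B6129SF2/J, with none passing. It is named for its role and was chosen after its values were seen.

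Of 7 genes that trim procollagen and cross-link fibrils, 0 passed in FVB, 4 rose in C57BL/6, 0 in B2KO and 2 in B6129SF2/J. The shares of all probe sets that rose were 13.3% in C57BL/6 and 2.35% in B6129SF2/J. Lox, lysyl oxidase, rose by 1.58 ± 0.34 in C57BL/6 (adjusted p = 0.000339) and 1.80 ± 0.33 in B6129SF2/J (adjusted p = 0.000144), against changes of 0.90 ± 0.33 in FVB (adjusted p = 0.208) and 0.65 ± 0.35 in B2KO that did not pass. The related Loxl3 rose by 0.61 in C57BL/6 and 0.91 in B6129SF2/J. In C57BL/6 Bmp1 (0.85), the procollagen C-proteinase, and Pcolce2 (0.96), an enhancer of it, rose as well.

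Degradation and uptake genes gave 0 of 7 in FVB, 4 higher in C57BL/6, 0 in B2KO and 5 higher in B6129SF2/J. Beside these counts, 13.3% of all probe sets rose in C57BL/6 and 2.35% in B6129SF2/J. Mmp2, a gelatinase, rose by 1.38 ± 0.35 in C57BL/6 and 1.37 ± 0.34 in B6129SF2/J. Mmp14, its membrane-bound activator, rose by 1.24 and 1.10, Mmp3 (stromelysin) by 1.42 and 1.38, and Mrc2, the receptor that takes up collagen fragments, by 1.63 and 0.95 in these lines. Ctsk, the protease cathepsin K, rose in B6129SF2/J by 1.41 ± 0.27 and did not pass in FVB (0.94 ± 0.27, adjusted p = 0.0621). Of 5 collagen receptor genes none rose. Lair1, an inhibitory leukocyte receptor for collagen, fell by 0.89 in C57BL/6, where 9.89% of all probe sets fell. Its level was near the array median. Whether these responses differed between lines is not given by which line passed.

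Among 17 other collagen genes above the filter, 5 rose and 2 fell in C57BL/6, where 13.3% of all probe sets rose and 9.89% fell. In FVB 1 rose (0.627% of all did), in B6129SF2/J 1 rose (2.35%), and in B2KO 0 passed. Col5a3, the third chain gene of type V collagen, rose by 1.06 ± 0.28 in FVB. In C57BL/6 Col16a1 (1.10) and Col12a1 (0.91), both fibril-associated, Col18a1 (1.04), the precursor of endostatin, Col8a2 (1.33), the partner of Col8a1, and Col6a4 (1.61) rose, and Col9a1 and Col23a1 fell by 1.18 and 0.94. Col8a2, Col9a1 and Col23a1 averaged −0.54, −0.36 and −0.39 over all arrays, below the array median, so they passed the filter through their brighter groups and the sizes of their changes rest on dim values. Col6a4 averaged 0.09. In B6129SF2/J the gene that rose was Col4a3, by 1.09, with a mean of −0.09 over all arrays. The basement membrane chains Col4a1 and Col4a2 passed in no line. The cartilage collagen Col2a1 did not pass the filter.

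**Figure D4:**
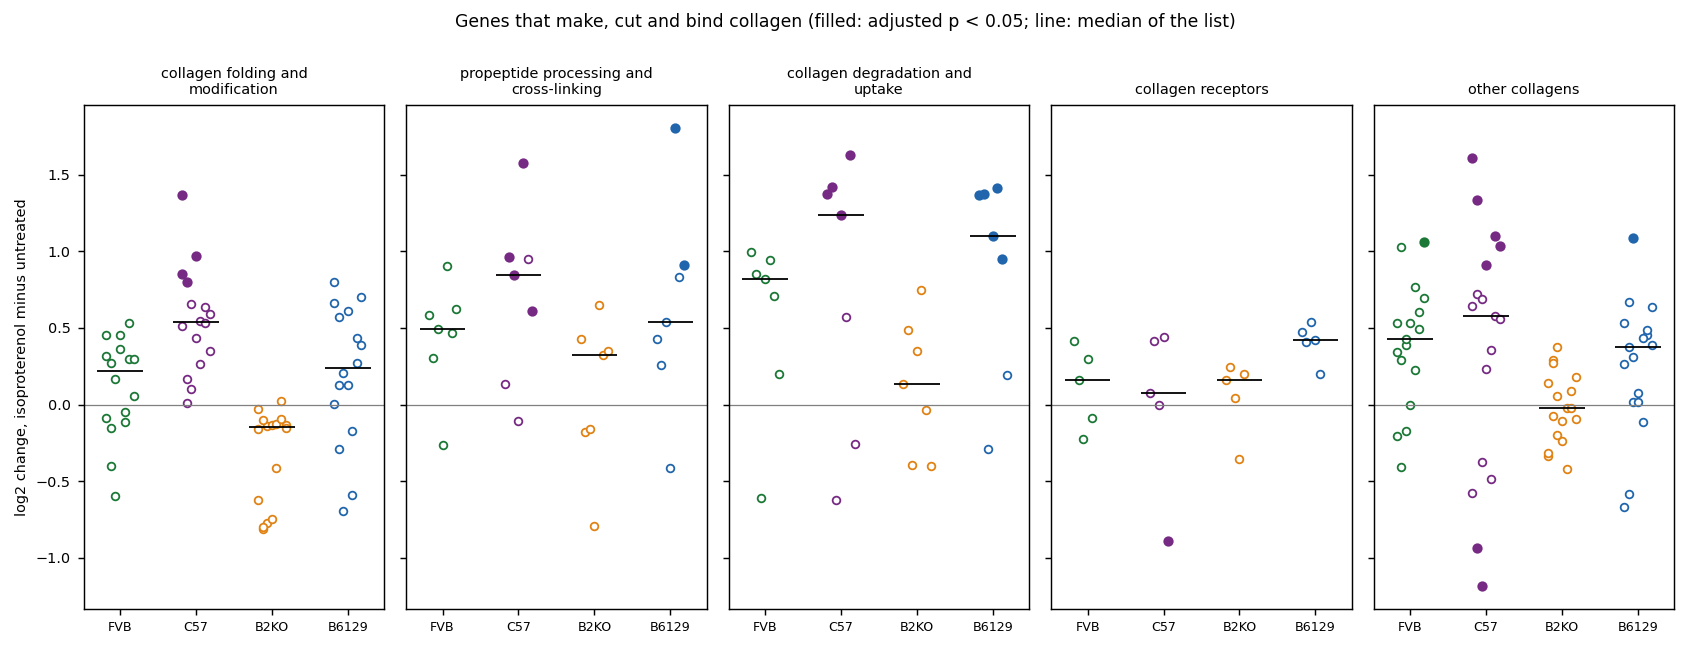
Log2 change with isoproterenol (vertical axis) of each tested gene of 5 lists in the 4 lines, filled where the limma adjusted p was under 0.05, with the list's median as a bar. The degradation list has medians of 0.82 in FVB, 1.24 in C57BL/6, 0.14 in B2KO and 1.10 in B6129SF2/J, and the receptor list holds no gene that rose.

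Marker genes of the heart's cell types are given beside the collagens, with all arrays kept. Of all tested probe sets, 0.627% rose in FVB, 13.3% in C57BL/6, 0.0522% in B2KO and 2.35% in B6129SF2/J. The median change over all of them was −0.01, 0.08, −0.23 and −0.01 in the same order. Of 8 fibroblast markers, 0 passed in FVB and B2KO, 3 rose in C57BL/6 (Mfap5, Pi16 and Gsn) and 2 in B6129SF2/J (Mfap5 and Pi16), with medians of 0.24 in FVB, 0.47 in C57BL/6, −0.07 in B2KO and 0.52 in B6129SF2/J. None of the 8 was below the array median in any group. Their summed level ran from 10.6 to 11.7 in treated and 10.6 to 11.3 in untreated FVB arrays, and from 10.5 to 11.9 in treated and 9.69 to 11.4 in untreated C57BL/6 arrays. It ran from 10.6 to 11.6 in treated and 10.3 to 11.5 in untreated B2KO arrays, and from 10.8 to 11.7 in treated and 10.8 to 11.5 in untreated B6129SF2/J arrays. Pdgfra and Tcf21, markers of resident fibroblasts, gave 0.10 (Pdgfra) and 0.33 (Tcf21) for FVB, 0.09 with 0.42 for C57BL/6, −0.18 with −0.06 for B2KO, and 0.39 with 0.65 for B6129SF2/J, and neither passed in any line. All 6 endothelial markers rose in C57BL/6 (median 1.18), with a summed level of 7.33 to 8.61 in treated and 5.91 to 7.34 in untreated arrays, and 0 of 6 passed in the other 3 lines. Adipocyte markers gave 3 of 4 higher in C57BL/6 and none in the other lines, and smooth muscle and pericyte markers gave 2 of 7 higher in C57BL/6, 1 in B6129SF2/J and 0 in FVB and B2KO. Of 5 cartilage and bone markers Col2a1, Acan and Ibsp lay below the array median in every group, while Comp, a matrix protein that tendon and fibroblasts also make, rose by 1.28 in C57BL/6 and 1.20 in B6129SF2/J. No macrophage marker of 6 passed in any line. The part of cell numbers in the collagen changes was not tested.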

How the data were processed

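RNA of whole hearts was hybridised to Affymetrix MOE430 2.0 arrays. The authors deposited normalized intensity values on a linear scale, made with GCRMA, named without a version in the submitters' processing notes; in the deposited values each array has a median of 1, and what set that median is not given in the sources used here. Intensities were turned to log2, so a level of 0 is the array median.

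Probe sets were named from the platform annotation: 34945 of 45101 have 1 symbol, 932 several and 9160 none, and 64 are controls. Probe sets whose highest group mean was above log2 0 were tested (24885). limma 3.58.1 in R 4.3.3 fitted the 8 groups of line by treatment together over 85 arrays, with moderated tests, Benjamini-Hochberg adjustment over all tested probe sets and a threshold of 0.05, for 14 two-sided comparisons. The ratio of Col1a1 to Col3a1 was tested by permutation with 1e+05 resamples (SciPy 1.17.1, Python 3.11.15). The code was tested on simulated data.

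Each gene was described by its brightest probe set over all arrays. The few genes most alike were those whose deviations from group means correlated best with the mean deviation of the 10 collagens. The collagens, the lists of related genes and the markers were chosen with earlier results of these data known. The labels do not say whether replicate numbers pair treated and untreated mice, and the main fit did not use them as pairs. Nothing says from which litters or days the mice came, so the p-values measure the spread between these arrays, whose number limits the precision. Alternatives covered the filter, scaling, pseudocount, moderation, array weights, probe set choice, a Gapdh covariate, left-out arrays, lines fitted alone and a replicate block.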

Additional observations from a re-analysis of the deposited data

Results flagged for a closer look

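Single arrays stood far from the rest of their group at 10 of 55 tested combinations of gene and group, where chance gives about 2.75. The combinations are not independent of each other, since the genes varied together. Only groups of 4 to 10 arrays were tested. Treated FVB, untreated C57BL/6 and treated B6129SF2/J were larger and were not tested, so treated FVB replicate 2 could not be flagged. Treated B2KO replicate 10, the failed array, was far below its group at Col1a1 (0.33), Col1a2 (1.75), Col6a1 (0.80), Col6a3 (0.30) and the difference of Col1a1 and Col3a1 (−8.15). Untreated B2KO replicate 8, with a Gapdh difference of 7.31, was far above its group at Col14a1 (4.66) and Col8a1 (5.47). Treated C57BL/6 replicate 2 was far above its group at Col1a2 (8.46) and Col5a2 (7.30), and untreated B2KO replicate 1 was far below at the difference of Col1a1 and Col3a1 (−4.27).

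The response to isoproterenol differed between lines at 2 collagen probe sets by the test of the difference itself. These are 2 of 21 in B2KO minus C57BL/6 and 1 of 21 in the mean of FVB and B2KO minus C57BL/6, where 10.9% of all probe sets passed in each comparison, so they are results on single probe sets and not on the collagens as a group. At 1418440_at of Col8a1 the effect in B2KO minus that in C57BL/6 was −1.74, and the mean effect of FVB and B2KO minus that in C57BL/6 was −1.46. At 1426947_x_at of Col6a2 the effect in B2KO minus that in C57BL/6 was −1.21, which did not pass without the failed array.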

How the results depend on the processing

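Counts of collagen probe sets that passed were 12 in FVB, 14 in C57BL/6 and 13 in B6129SF2/J. They stayed within 1.5 times of these under every alternative that counted probe sets, except in FVB. There 19 passed with array weights (3.33% of all rose), 19 without 3 arrays (2.11%) and 20 without 8 (3.11%). Alternatives with 1 value per gene were counted in genes. At the brightest probe sets 6 genes passed in FVB, 6 in C57BL/6 and 5 in B6129SF2/J. The count of 0 in B2KO became 4 with arrays centred on the tested probe sets (where 0.237% of all tested probe sets rose), 6 with quantile normalization (0.269%), 7 with array weights (0.856%), 1 with the Gapdh covariate (0.0563%), 5 without 3 arrays (0.193%) and 6 without 8 (0.241%). With 1 array left out at a time (leave-one-out) the counts were 11 to 17 in FVB, 11 to 15 in C57BL/6, 0 to 2 in B2KO (2 without treated replicate 5 or 7, 1 without untreated replicate 8) and 12 to 13 in B6129SF2/J. For the effect in B2KO minus C57BL/6, the count of 2 became 1 with centred arrays, quantile normalization, without the failed array and without 3 arrays. Leaving out the failed array also gave the lowest count with 1 array left out. The count was 0 when these lines were fitted alone. With the mean of each gene's probe sets 1 gene passed, against 0 genes at the brightest probe sets. For B6129SF2/J minus C57BL/6, 0 became 1 with centred arrays, quantile normalization, without the failed array, 3 or 8 arrays, or without untreated C57BL/6 replicate 11, 2 with these lines alone and 3 with array weights. FVB minus C57BL/6 gave 1 with array weights. The mean of FVB and B2KO minus C57BL/6 gave 2 in place of 1 without untreated C57BL/6 replicate 11. Among untreated hearts, FVB minus C57BL/6 gave 2 with centred arrays and 1 with array weights, with these lines alone, without the failed array, 3 or 8 arrays, or without C57BL/6 replicate 10. B6129SF2/J minus FVB gave 1 with centred arrays, array weights or these lines alone and 2 without 3 arrays. B6129SF2/J minus C57BL/6 gave 2 in place of 1 with array weights and 0 without untreated C57BL/6 replicate 1, 2 or 6. Shares over all probe sets are not given here for counts with 1 array left out or for comparisons between lines. Such shares can move with the setting too. The cause of these moves was not tested.

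Signs of single genes turned in B2KO alone, and that of the difference of Col1a1 and Col3a1 in B2KO, FVB and C57BL/6. Col1a2 (−0.15 with all arrays) was at 0.077 with centred arrays, 0.36 with quantile normalization, 0.42 with array weights, 0.16 as the mean of probe sets, 0.36 when the failed array was left out, 0.53 without 3 and 0.61 without 8. In the same order, leaving out the mean of probe sets, Col6a1 (−0.20) was at 0.032, 0.28, 0.29, 0.31, 0.42 and 0.46. Col6a3 (−0.07) was at 0.16, 0.28, 0.38, 0.39, 0.51 and 0.59, and at 0.0068 with the Gapdh covariate. With 1 array left out, changes ran from −0.078 to 0.77 for Col1a1, −0.33 to 0.36 for Col1a2, −0.35 to 0.31 for Col6a1, −0.029 to 0.33 for Col6a2 and −0.23 to 0.39 for Col6a3. The difference of Col1a1 and Col3a1 in B2KO turned to 0.086 when the failed array was left out and to 0.024 without 3 arrays. As the mean of probe sets it was −0.40 in FVB, −0.19 in C57BL/6 and −0.68 in B6129SF2/J. Of the other single-gene values under alternatives, 573 kept sign and call, 75 passed where they had not and 7 no longer passed.

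With the replicate number as a block, 12 collagen probe sets passed in FVB, 15 in C57BL/6, 0 in B2KO and 13 in B6129SF2/J. Between lines, 3 passed in B2KO minus C57BL/6, 1 in B6129SF2/J minus C57BL/6 and 2 in the mean of FVB and B2KO minus C57BL/6. The shares over all probe sets are not given for these counts. Deviations of same-numbered arrays correlated above 0.1 in 2 of 10 pairs in FVB, 0 of 10 in C57BL/6, 4 of 9 in B2KO and 1 of 10 in B6129SF2/J. These correlations cannot show whether the numbers pair the mice, and the main fit did not use them as pairs.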
